A study of Dichomitus squalens with 6 samples.

Results

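Growth of the white-rot fungus Dichomitus squalens on L-rhamnose was compared with growth on xylose. The comparison takes 4 of the 6 libraries of the series, 2 from mycelium on L-rhamnose and 2 from mycelium on xylose, chosen by their labels. Of 15295 gene models, 12667 had enough counts to be tested. All libraries came from wild type mycelium of the monokaryotic strain CBS 464.89 after 5 days at 28 °C on 1.5% agar plates. Each medium held 25 mM of its sugar in a low-nitrogen base that also contained asparagine and succinate, so both of these were present on either sugar. Mycelium on cellobiose, grown in the same way and held in the other 2 libraries, is used below as a reference level and for the estimate of spread. Nothing in the labels tells whether both replicates of a sugar came from separate plates, so p-values measure the spread between these libraries, which may be technical.

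L-rhamnose is a deoxy sugar that alternates with galacturonic acid in the backbone of rhamnogalacturonan, a pectin, and also occurs in other plant polymers. In fungi in which its breakdown has been studied, such as the yeast Scheffersomyces stipitis and Aspergillus species, it is oxidised without phosphorylation and cleaved to pyruvate and lactaldehyde. Xylose is the backbone sugar of xylan, and fungi commonly reduce it to xylitol, oxidise that to xylulose and pass it, phosphorylated, into the pentose phosphate pathway. The series was set up to look for candidate regulators of plant biomass breakdown. The deposited gene models carry a position, a gene number and a JGI protein number, and these were paired for all 15295 models. The files do not pair them with names or functions, so no gene is assigned a role here, no enzyme, transporter or pathway list could be formed, and most genes are described by position, structure and level.

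Expected counts, the reads that the RSEM program assigns to each gene, summed to 7306517 and 7736271 for L-rhamnose and to 8126006 and 7979043 for xylose. The xylose libraries were the least alike. Between them, 1250 of the 12667 tested genes differed by more than 2-fold in CPM (normalised counts relative to the library total), against 350 between the L-rhamnose libraries and 579 between the cellobiose libraries. The next counts used CPM scaled to the library total alone. Of the genes called higher on L-rhamnose below, 138 were more than 2-fold higher in xylose replicate 2 than in xylose replicate 1, and 17 the other way round. Of those called lower, 176 were more than 2-fold higher in xylose replicate 1 and 33 in replicate 2. In both sets xylose replicate 2 was thus more often the xylose library nearer to L-rhamnose.

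A large share of the transcriptome differed between the sugars, in nearly equal numbers each way, and the rises were the larger changes. Of 12667 tested genes, 3988 (31.5%) passed edgeR's quasi-likelihood test at a Benjamini-Hochberg adjusted p under 0.05. Of these, 2014 (15.9% of those tested) were higher and 1974 (15.6%) lower on L-rhamnose. The median change was 2.72-fold among the higher and 2.09-fold among the lower genes. Among these, 1595 genes (12.6%) rose and 1091 (8.61%) fell by 2-fold or more, and 491 and 319 by 4-fold or more. At the far end the order turned, with 12 higher and 29 lower genes past 32-fold. Scaling to the library totals alone in place of TMM factors moved the median log2 difference of all genes from 0.01 to 0.16, and the split was then 2471 higher and 1439 lower genes, or 63.2% higher in place of 50.5%. FPKM, the deposited level relative to gene length and library total, carries no TMM factor either, so the balance of higher and lower genes depends on the scaling. The 4 genes named below kept their direction under each scaling tried.

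**Figure D1:**
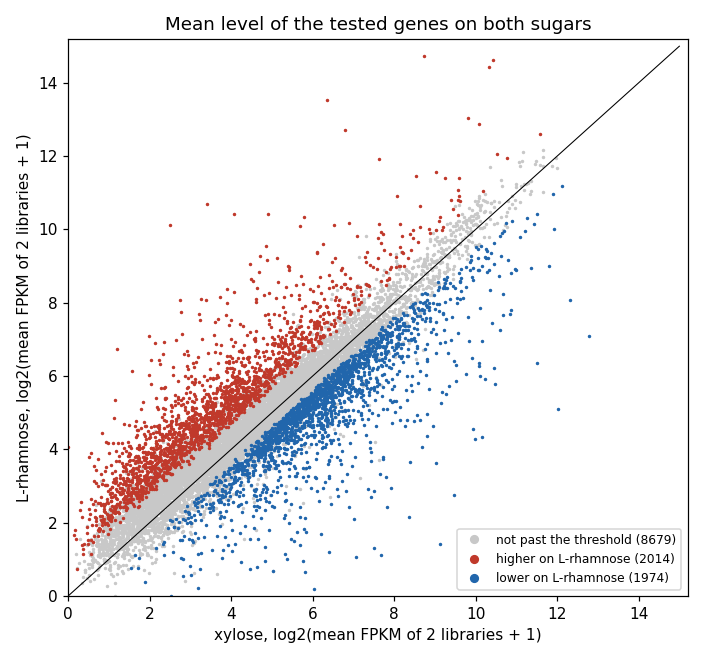
Mean level of the 12667 tested genes on xylose (horizontal axis) and L-rhamnose (vertical axis), as log2 of the mean FPKM of 2 libraries plus 1, with 1 dot per gene. The 2014 genes called higher on L-rhamnose lie above the line of equal level and the 1974 called lower lie below it, and the genes with the highest levels of all stand above the line.

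Both L-rhamnose libraries were needed for most of these calls. Without L-rhamnose replicate 1 the test called 761 genes (497 higher, 264 lower), and without L-rhamnose replicate 2 it called 1176 (749 and 427). These fits take the remaining L-rhamnose library to have the same spread as cellobiose and xylose. Of these calls, 759 and 1147 were among the 3988 in the same direction, and 0 were in the opposite direction. Leaving out xylose replicate 1 or 2 gave 2806 or 4124 calls, of which 2551 and 3239 were shared, and without either cellobiose library there were 3280 and 3283. Counts by region and class below also fell when an L-rhamnose library was left out.

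**Figure D2:**
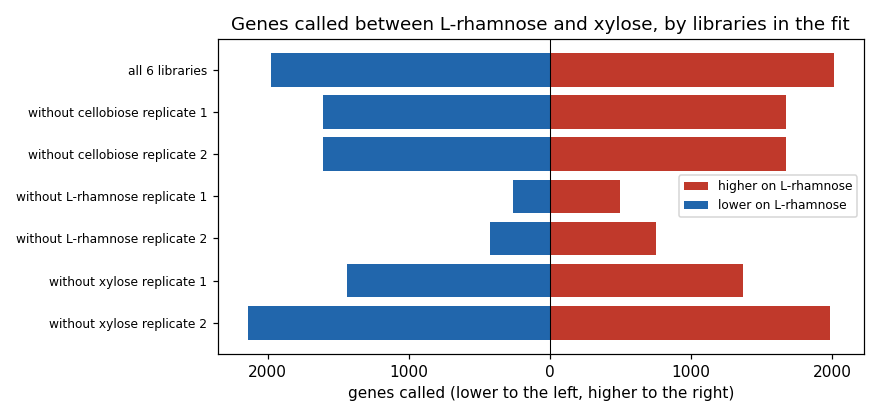
Number of genes called between L-rhamnose and xylose with all 6 libraries and without each library in turn, with genes lower on L-rhamnose drawn to the left of 0 and higher genes to the right. The bars are shortest without L-rhamnose replicate 1 (497 higher, 264 lower) and L-rhamnose replicate 2 (749 higher, 427 lower).

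The genes called higher took a far larger share of the RNA counted on L-rhamnose than on xylose, as their selection implies. They made up 22.4% and 22.1% of the counts on L-rhamnose and 5.03% and 6.46% on xylose. On cellobiose, which was not part of the contrast, they took 11.3% and 10.1%. The genes called lower held 15.01% and 14.8% of the counts on L-rhamnose, 37.6% and 33.4% on xylose, and 25.9% and 29.3% on cellobiose. Cellobiose lay between the sugars in both sets, with no overlap of libraries.

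The greatest rise among genes that share no reads with another gene was that of gene_9595 (protein number 968089). It is an 11-exon model of 1113 coding bases on scaffold 52, minus strand, from 176885 to 179203. It reached 1363 and 879 FPKM on L-rhamnose, against 3.09 and 6.16 on xylose and 36.8 and 18.7 on cellobiose. The 3 sugars did not overlap, and cellobiose was far nearer to xylose than to L-rhamnose. The fitted log2 difference was 7.77 ± 0.55 (SE, n = 2 libraries per sugar, edgeR adjusted p = 0.00119).

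This gene stood at the end of a block of 4 adjacent models on the same strand that were all higher on L-rhamnose. The model at 170449 to 171876 was at 34.0 and 33.4 FPKM on L-rhamnose and 3.51 and 4.55 on xylose (log2 difference 2.92 ± 0.25, edgeR adjusted p = 0.0014). The model at 172927 to 174419 was at 22.5 and 20.5 FPKM against 1.84 and 3.99 (2.74 ± 0.39, edgeR adjusted p = 0.00474). The model at 174789 to 176381 was at 82.0 and 46.6 FPKM against 2.15 and 7.78 (3.55 ± 0.60, edgeR adjusted p = 0.00748), and its call was lost without L-rhamnose replicate 1 (edgeR adjusted p = 0.0582). For this last model the log2 difference was 4.72 without xylose replicate 2 and 2.90 without xylose replicate 1. The block had sharp edges. The next model on one side, at 167811 to 170311, was at 16.4 and 15.6 FPKM on L-rhamnose and 16.5 and 16.4 on xylose. The next on the other side, at 179227 to 182769, was at 36.4 and 39.0 FPKM against 40.5 and 30.6. The block was singled out after its values were seen, since it surrounds the gene with the greatest rise.

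The next greatest rise was that of gene_7552 (protein number 847551), a 3-exon model of 348 coding bases on scaffold 21, from 269421 to 270086. It stood at 2169 and 1154 FPKM on L-rhamnose and at 8.75 and 10.4 on xylose, with a log2 difference of 7.28 ± 0.41 (SE, edgeR adjusted p = 0.000934). On cellobiose it was at 3075 and 3748 FPKM, above both L-rhamnose libraries, so xylose was the sugar on which it was low. Its neighbours did not move with it. The models on either side, at 267022 to 268190 and at 270627 to 271695, had log2 differences of -0.26 and 0.66, neither past the threshold (edgeR adjusted p = 0.284 and 0.0953).

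The greatest falls were in short genes that were close to silent on L-rhamnose. The 6-exon model gene_12153 (protein number 823238), of 495 coding bases on scaffold 65 from 21030 to 21858, had 1 and 0 counts on L-rhamnose against 410 and 84 on xylose. Its level was 106 and 22.1 FPKM on xylose, so these libraries differed widely, and 0.26 and 3.18 on cellobiose. The ratio of xylose to L-rhamnose counts, per total count, was 461 (95% exact interval 82.4 to 18261, which covers counting error only). The fitted log2 difference was -8.68 ± 1.43 (edgeR adjusted p = 0.00699). It was -11.0 and -7.82 without L-rhamnose replicates 1 and 2, where the call was lost (edgeR adjusted p = 0.0662 and 0.0636). Leaving out xylose replicate 1 gave -7.13, and xylose replicate 2 -9.42.

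The 3-exon model gene_14168 (protein number 826985) has 234 coding bases and lies on scaffold 96 from 35699 to 36058. It had 5 and 0 counts on L-rhamnose and 703 and 1149 on xylose. The ratio per total count was 346 (95% exact interval 148 to 1067, counting error only), and the fitted log2 difference was -8.51 ± 1.09 (edgeR adjusted p = 0.00353). It was -12.9 and -7.53 without L-rhamnose replicates 1 and 2 (edgeR adjusted p = 0.0411 and 0.0412). The level on xylose was 421 and 700 FPKM, and on cellobiose 3.03 and 29.5. Both genes that fell were thus highest on xylose, with cellobiose nearer to L-rhamnose. None of the 4 tested models on either side of each passed the threshold, and the nearest model before gene_12153, at 17528 to 18584, had a log2 difference of -2.48 ± 1.05 (edgeR adjusted p = 0.11).

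**Figure D3:**
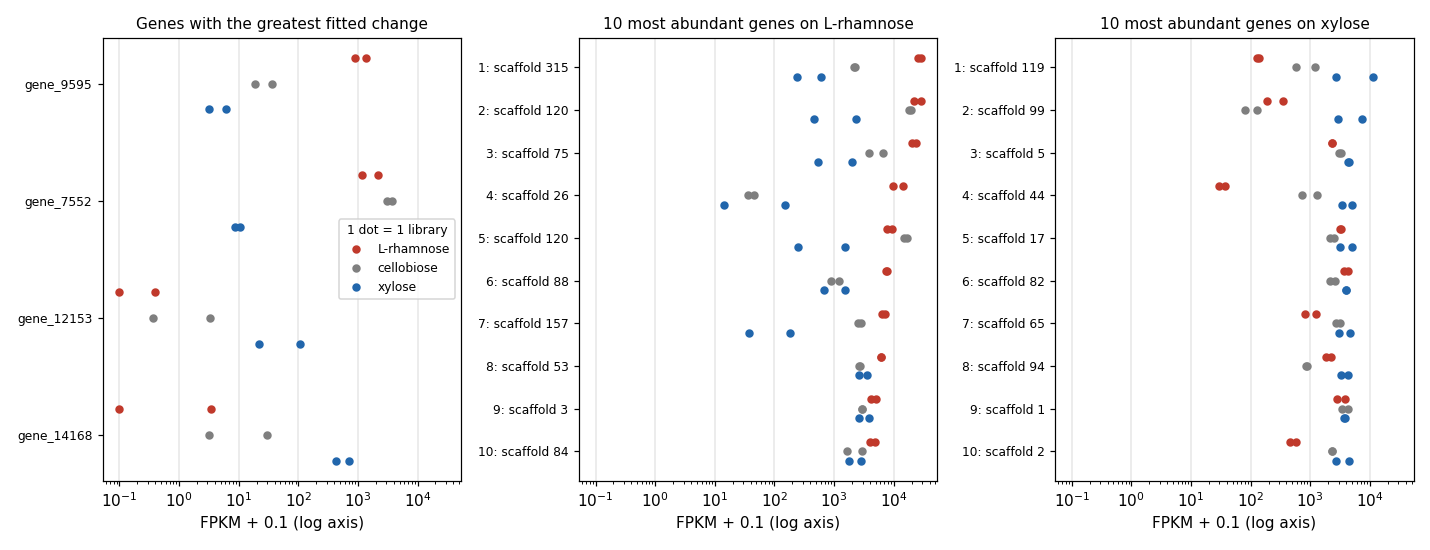
FPKM plus 0.1 on a log axis, 1 dot per library, for the 4 genes with the greatest fitted change (left) and for the 10 most abundant genes on L-rhamnose (middle) and on xylose (right), labelled by rank and scaffold. Red dots are L-rhamnose, grey cellobiose and blue xylose, and dots at 0.1 are libraries with 0 FPKM; the 7 most abundant genes on L-rhamnose have both red dots to the right of both blue ones by a wide gap.

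Few called genes were silent on one of the sugars. Among the genes called higher on L-rhamnose, 16 had at most 3 counts over both xylose libraries, and they stood at 1.94 to 20.9 FPKM on L-rhamnose, with a median of 6.46. Among the genes called lower, 4 had at most 3 counts over both L-rhamnose libraries, at 4.76 to 64.05 FPKM on xylose. In each direction 1 gene was at 0 in both libraries. Most calls were therefore differences in level between genes that were read on both sugars.

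The most abundant transcripts of the mycelium ranked differently on both sugars, though some of them differed little in level. The 10 genes with the highest mean FPKM on L-rhamnose and the 10 on xylose had 0 members in common, although 51 genes were among the 100 most abundant on both. The gene at rank 6 on xylose, for instance, had a mean of 3993 FPKM there and 3929 on L-rhamnose. Of the 10 on L-rhamnose, 8 were called higher there and 0 lower. They took 5.03% and 5.61% of the counts on L-rhamnose and 0.339% and 0.732% on xylose. Of the 10 on xylose, 7 were called lower on L-rhamnose and 0 higher, and they took 3.28% and 2.80% of the counts on xylose and 1.35% and 1.44% on L-rhamnose. Genes chosen for a high level on one sugar lean towards that sugar by the choice itself. Among the 100 most abundant on L-rhamnose, 29 were called higher and 3 lower, and among the 100 on xylose, 43 were called lower and 5 higher, against 15.9% higher and 15.6% lower of all tested genes.

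Short coding sequences were frequent among the most abundant genes on both sugars, and more so on L-rhamnose. Coding length was under 500 bases in 9 of the 10 most abundant genes on L-rhamnose and in 3 of the 10 on xylose. It was so in 60 and 43 of the 100 most abundant, against 2374 of all 12667 tested genes. The ranking used FPKM, which is relative to gene length. The most abundant of all was a 3-exon model of 468 coding bases at 2855 to 4002 on scaffold 315. It was at 28723 and 25686 FPKM on L-rhamnose, 237 and 610 on xylose, and 2205 and 2183 on cellobiose (log2 difference 5.87 ± 0.52, edgeR adjusted p = 0.00144, and 6.68 without xylose replicate 2). It was more abundant on L-rhamnose than on either other sugar by a wide gap in every library.

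A group of 3 models with a coding length of 477 bases followed at ranks 2, 3 and 5. They share reads with other genes, so their separate levels are uncertain. The models at 61510 to 63026 and 47566 to 48744 lie on scaffold 120, and the model at 128772 to 130159 on scaffold 75. The first stood at 22103 and 28786 FPKM on L-rhamnose, 459 and 2291 on xylose and 19686 and 18369 on cellobiose (log2 difference 4.08 ± 0.73, edgeR adjusted p = 0.00874). The second stood at 7635 and 9234, 244 and 1551, and 14612 and 16409 FPKM (3.10 ± 0.76, edgeR adjusted p = 0.0226). The model on scaffold 75 was at 20349 and 24082, 537 and 2021, and 6495 and 3836 FPKM (3.99 ± 0.65, edgeR adjusted p = 0.00686). All 3 were lower on xylose than on the other sugars, though still at means of 1375, 898 and 1279 FPKM in that order. All 3 were abundant on cellobiose too, and several-fold higher in xylose replicate 2 than in xylose replicate 1. Without xylose replicate 2 their log2 differences were 5.63, 4.95 and 5.21, and without xylose replicate 1 they were 3.34, 2.31 and 3.33. Both scaffold 120 models lost the call without L-rhamnose replicate 1 or 2 (edgeR adjusted p from 0.0525 to 0.0975).

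At rank 4, a 3-exon model of 309 coding bases on scaffold 26, from 277347 to 277982, was at 9636 and 14262 FPKM on L-rhamnose, 13.9 and 148.5 on xylose and 46.2 and 36.1 on cellobiose (log2 difference 7.08 ± 1.05, edgeR adjusted p = 0.0051, and 9.58 and 6.20 without xylose replicates 2 and 1). Unlike the genes at ranks 2, 3 and 5, it was abundant on L-rhamnose and on neither of the other sugars. At rank 7, a 3-exon model of 213 coding bases at 30796 to 31209 on scaffold 157 was at 6280 and 7150 FPKM on L-rhamnose and 36.9 and 182 on xylose (log2 difference 5.81 ± 0.71, edgeR adjusted p = 0.00294, and 7.35 without xylose replicate 2 and 5.07 without xylose replicate 1). At rank 6, a 9-exon model of 768 coding bases at 68926 to 70423 on scaffold 88 was at 7412 and 7738 FPKM against 673 and 1504 (2.66 ± 0.41, edgeR adjusted p = 0.00584, and 3.33 without xylose replicate 2). In each of the 7 highest-ranked genes xylose replicate 2 was above xylose replicate 1. The gene at rank 8, on scaffold 53, had a small difference (log2 0.86 ± 0.24, edgeR adjusted p = 0.0327), and its call was lost without each library except xylose replicate 2 (edgeR adjusted p from 0.0635 to 0.129). Those at ranks 9 and 10 did not pass.

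On xylose the most abundant gene was a 3-exon model of 390 coding bases at 48326 to 48832 on scaffold 119. Its xylose replicates differed several-fold, at 11322 and 2658 FPKM, and it was at 130 and 140 on L-rhamnose and 569 and 1194 on cellobiose (log2 difference -5.85 ± 0.79, edgeR adjusted p = 0.00405). The difference was -4.43 without xylose replicate 1 and -6.55 without xylose replicate 2, and the call was lost without L-rhamnose replicate 1 (edgeR adjusted p = 0.0551). The rank of this gene rests on xylose replicate 1. The gene at rank 2, an 8-exon model of 492 coding bases at 37192 to 38344 on scaffold 99 that shares reads, had uneven xylose libraries the other way round, at 2909 and 7263 FPKM against 354 and 186.5 on L-rhamnose and 81.5 and 129.8 on cellobiose (-4.38 ± 0.55, edgeR adjusted p = 0.00333). Its difference was -3.60 without xylose replicate 2 and -4.89 without xylose replicate 1. Of the 7 called genes, 3 remained called without L-rhamnose replicate 1 and 5 without L-rhamnose replicate 2.

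The gene with the steepest fall among the abundant ones was a 3-exon model of 528 coding bases at 99782 to 100600 on scaffold 44, at rank 4. It stood at 4930 and 3431 FPKM on xylose, 36.9 and 29.5 on L-rhamnose and 737 and 1306 on cellobiose (log2 difference -7.12 ± 0.44, edgeR adjusted p = 0.000934). It remained called when any single library was left out, with log2 differences from -7.38 to -6.83. At rank 10, a 4-exon model of 657 coding bases at 1269004 to 1269821 on scaffold 2 was at 4450 and 2731 FPKM on xylose, 457 and 573 on L-rhamnose and 2281 and 2285 on cellobiose (-2.95 ± 0.32, edgeR adjusted p = 0.00225). Here cellobiose resembled xylose, whereas for the scaffold 44 gene it lay well between the sugars. At rank 8, a model at 92771 to 95714 on scaffold 94 was at 4366 and 3294 FPKM on xylose and 1821 and 2206 on L-rhamnose (-1.07 ± 0.28, edgeR adjusted p = 0.0275), and at 842 and 889 on cellobiose. That call was lost without either L-rhamnose or either cellobiose library (edgeR adjusted p from 0.0545 to 0.168).

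Genes that rose and genes that fell differed in length and level. Coding sequences under 500 bases were higher on L-rhamnose in 19.6% of 2374 tested genes and lower in 7.96%. Those of 2000 bases or more were higher in 9.86% of cases and lower in 17.3%. The median log2 difference went from 0.35 in the shortest class through 0.06 and -0.05 to -0.14 in the longest, against 0.01 over all genes. With library totals alone all class medians moved up with the median of all genes, which was 0.16. They became 0.50 in the shortest and 0.0 in the longest class. Of the longest genes 12.7% were then higher and 11.4% lower, against 19.5% and 11.4% of all tested genes. Without L-rhamnose replicate 1 the order of calls in the longest class turned. Higher calls outnumbered lower ones over all tested genes in that fit, and the class median of -0.12 stayed below that of all genes. The shortest class then held 4.04% higher and 1.35% lower genes, and 7.57% and 1.32% without L-rhamnose replicate 2.

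Among genes with a mean of 10 to 100 FPKM over the 4 libraries, 25.1% of the 1042 shortest were higher and 7.20% lower, and 7.84% of the 1492 longest were higher and 18.8% lower. For the longest these shares were 10.5% and 12.47% with library totals alone, against 18.9% and 12.6% of all genes at that level. Without L-rhamnose replicate 1 the order turned, and higher calls then outnumbered lower ones among all genes at that level too. Without L-rhamnose replicate 2 lower calls stayed the more frequent among the longest. With L-rhamnose replicate 1 or 2 left out in turn, the shortest were 5.95% and 11.8% higher, and 0.96% lower in both. By level, genes with a mean under 10 FPKM were higher in 18.7% of 3277 cases and lower in 3.91%, with a median log2 difference of 0.48. Genes at 100 to 1000 FPKM were higher in 12.9% of 1788 cases and lower in 28.1%, with a median of -0.25. Without L-rhamnose replicates 1 and 2 the low class held 2.45% and 4.29% higher and 0.313% and 0.588% lower genes, and the class at 100 to 1000 FPKM held 5.09% and 5.98% higher and 6.21% and 8.39% lower genes. Without xylose replicate 1 the low class held 8.91% higher and 2.07% lower genes. The medians were 0.63 and -0.10 with library totals alone, and between 0.43 and 0.52 and between -0.27 and -0.21 when single libraries were left out.

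Models with 1 exon were higher in 18.1% of 967 cases and lower in 6.83%. Leaving out L-rhamnose replicate 1 or 2 brought these shares to 2.85% or 5.69% higher and 1.23% or 1.77% lower, and without xylose replicate 1 they were 10.4% higher and 4.99% lower. Models with 5 to 9 exons were higher in 14.2% of 4406 and lower in 18.2%. That order turned with library totals alone (17.4% higher, 12.7% lower) and when L-rhamnose replicate 1 (3.57% and 2.33%) or replicate 2 (5.22% and 3.24%) was left out. Models with 10 or more exons did not continue that order, with 19.2% of 2032 higher and 18.0% lower. Genes that share reads with another gene were higher more often than lower, in 23.4% and 10.3% of 1062 cases, against 15.21% and 16.1% of the 11605 others. Without L-rhamnose replicates 1 and 2 the genes that share reads were 5.47% and 8.14% higher and 2.10% and 2.62% lower. Among the others, the higher genes were then the more frequent, as they were over all tested genes. The same held with library totals alone, at 18.7% against 11.6%, where all tested genes were at 19.5% and 11.4%. A gene belongs to a class of each kind, and the separate part of each was not tested.

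**Figure D4:**
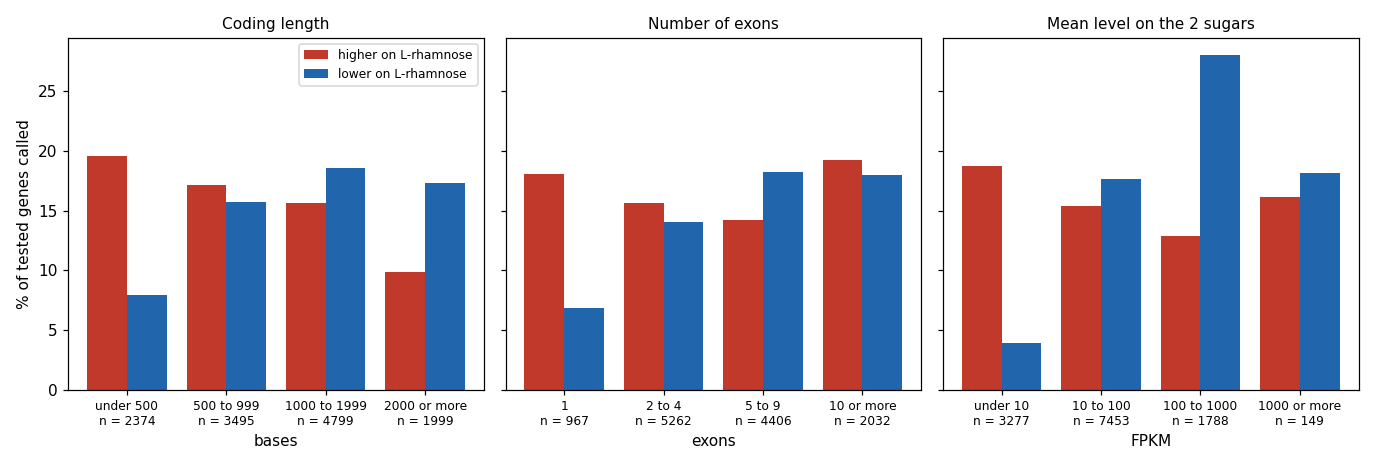
Percentage of tested genes called higher (red) and lower (blue) on L-rhamnose than on xylose, by coding length, number of exons and mean FPKM over the 4 libraries, with the number of tested genes under each class. The red bar is more than 2 times as tall as the blue bar in the shortest coding sequences and in genes with a mean under 10 FPKM, and the blue bar is the taller at 100 to 1000 FPKM.

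Called genes lay next to each other in many places. At least 3 consecutive models were higher on L-rhamnose by at least 2-fold in 50 runs that held 169 models, and lower in 24 runs that held 77, where 12.6% and 8.61% of tested genes met these rules. Without L-rhamnose replicates 1 and 2 there were 3 and 8 runs of higher and 1 and 4 runs of lower genes. Without xylose replicate 1 there were 26 runs of higher genes, and without xylose replicate 2 there were 42 of lower genes. How many runs would arise by chance was not computed. In the 4 longest runs of each direction the direction of the median was the same in every fit.

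The 6-model run on scaffold 97 began at the end of the scaffold, at 1, and reached 11907. Its models had log2 differences from 1.06 to 2.31 with a median of 1.92, and their mean level was 143 and 114 FPKM on L-rhamnose and 22.1 and 30.6 on xylose. The first model, at 1 to 1101, was at 326 and 316 FPKM against 64.4 and 61.3, and the last, at 10880 to 11907, at 397 and 260 against 36.9 and 83.0. Both share reads with other genes, as does 1 other model of the run. The 3 that do not share reads include the model at 7224 to 8596, which was at 75.3 and 62.2 FPKM on L-rhamnose against 18.9 and 21.5 on xylose. Without L-rhamnose replicate 1 or 2, 2 of the 6 models remained called.

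The 6-model run on scaffold 4, at 709635 to 725642, had a median log2 difference of 1.76. Its mean level was 229 and 204 FPKM on L-rhamnose, 30.02 and 78.1 on xylose and 52.9 and 37.3 on cellobiose. The first model, at 709635 to 711995, was at 850 and 718 FPKM on L-rhamnose and 101 and 309 on xylose. The model right after the run, at 727545 to 729465, went the other way, at 94.4 and 118 FPKM on L-rhamnose and 378 and 265 on xylose (log2 difference -1.74, edgeR adjusted p = 0.00431). Without L-rhamnose replicates 1 and 2, 1 and 2 models of the run remained called.

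The 5-model run on scaffold 1, at 881493 to 894581, lies wholly on the plus strand and had the highest median of the 4 described runs of higher genes, at 2.46. Its mean level was 68.9 and 56.7 FPKM on L-rhamnose, 7.15 and 12.8 on xylose and 13.6 and 9.85 on cellobiose. The largest difference was in the last model, at 891829 to 894581, with 92.7 and 89.6 FPKM on L-rhamnose against 3.58 and 12.49 on xylose (log2 3.37, edgeR adjusted p = 0.00533). Its span overlaps that of the model before it, so the 2 cannot be fully told apart. The model before the run, at 879588 to 880976, was also called higher, but by less than 2-fold (log2 0.81, edgeR adjusted p = 0.0339). The model after the run, at 895570 to 897649, was at 749 and 841 FPKM on L-rhamnose and 809 and 748 on xylose. Without L-rhamnose replicates 1 and 2, 3 and 4 of the 5 models remained called, and the median was 3.12 without xylose replicate 2.

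The run on scaffold 103, at 70636 to 83535, had a higher mean level on cellobiose than on L-rhamnose, which 2 overlapping models carried. Its 5 models had a mean level of 74.8 and 61.9 FPKM on L-rhamnose, 13 and 19.3 on xylose, and 149 and 142 on cellobiose. The model at 78628 to 79309 stood at 173 and 186, 37.6 and 64.2, and 530 and 503 FPKM on these sugars in turn. It overlaps the model at 79076 to 79860, which had the largest log2 difference of the run, 3.15 (edgeR adjusted p = 0.00405), and which was at 98.0 and 50.5 FPKM on L-rhamnose and 142 and 125 on cellobiose. The mean of the 2 cellobiose libraries was below that of the L-rhamnose libraries in the other 3 models, at 7.52 against 11.3, 3.04 against 4.86 and 68.8 against 72.2 FPKM. Without L-rhamnose replicate 1 or 2, or without xylose replicate 1, 3 of the 5 models remained called. In the other 3 described runs of higher genes, the mean level on cellobiose was below both L-rhamnose libraries.

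Among the runs of lower genes, 2 of the 4 longest lay on scaffold 77. One at 44825 to 53043 held 5 models, all on the minus strand, with a median log2 difference of -3.26. Their mean level was 23.5 and 19.7 FPKM on L-rhamnose, 87.9 and 72.3 on xylose and 57.0 and 85.9 on cellobiose. The model at 47730 to 48722 was at 10.4 and 7.58 FPKM on L-rhamnose, 131 and 98.8 on xylose, and 46.7 and 107 on cellobiose. In this run cellobiose was close to xylose. Without L-rhamnose replicate 1 or 2, 3 of the 5 models remained called.

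The other, at 14253 to 26181, held 4 models and had the same median of -3.26, but with a mean level on cellobiose of 3.18 and 9.36 FPKM it lay nearer to L-rhamnose (2.33 and 1.96) than to xylose (21.7 and 29.1). Its steepest member, at 18939 to 20480, went from 50.0 and 59.7 FPKM on xylose to 0.45 and 0.69 on L-rhamnose (log2 -6.69, edgeR adjusted p = 0.00323). On cellobiose that member was at 5.24 and 25.0 FPKM, nearer to xylose on a log scale. Without either L-rhamnose library 1 of the 4 remained called. The 2 runs on scaffold 77 thus share their direction between L-rhamnose and xylose. By the mean level of the run they differ in where cellobiose stood, though not by this steepest member.

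The run on scaffold 123, with 4 models at 26700 to 39153 and 1 that shares reads, had a median of -2.75 and uneven xylose replicates, at a mean of 81.6 and 27.7 FPKM against 8.23 and 7.72 on L-rhamnose. Its median was -1.93 without xylose replicate 1, and without L-rhamnose replicates 1 and 2, 0 and 2 models remained called. On scaffold 10, 4 models at 374478 to 383724, 1 of which shares reads, had a median of -1.19, at 35.1 and 31.9 FPKM on L-rhamnose, 90.0 and 74.6 on xylose and 31.3 and 41.2 on cellobiose, and 1 remained called without either L-rhamnose library. Xylose was the sugar that stood apart there.

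**Figure D5:**
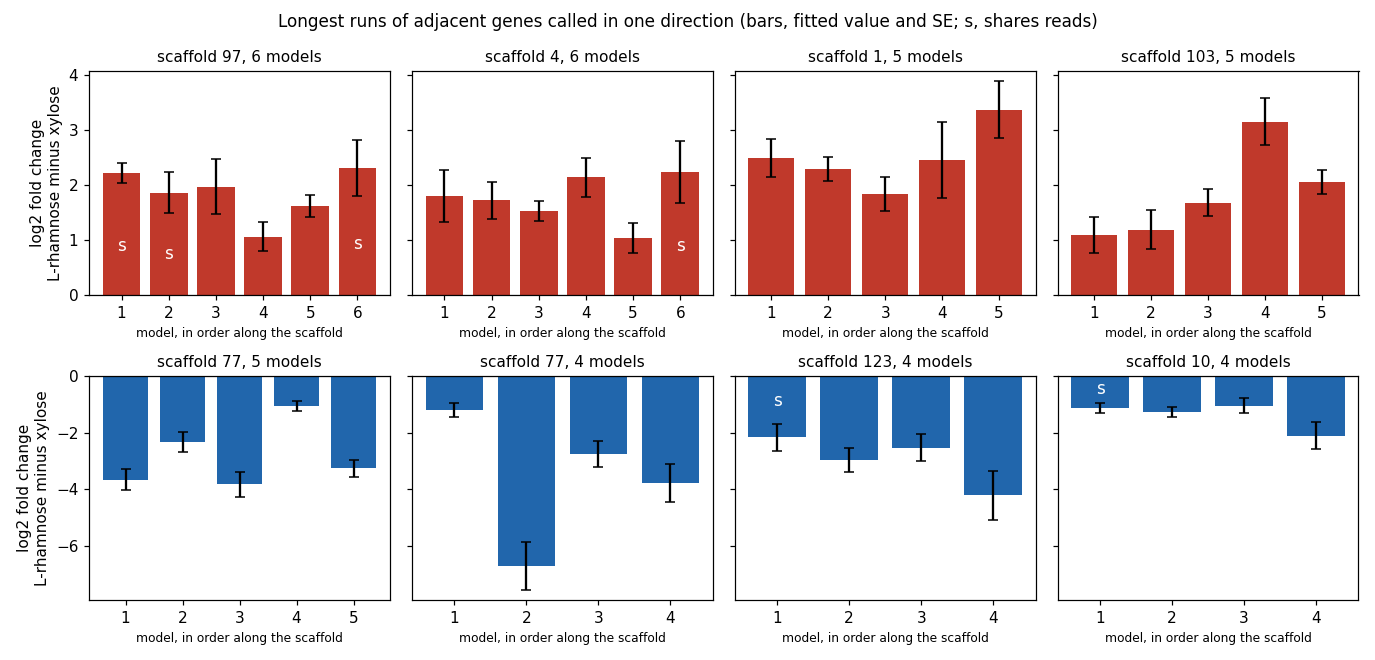
Fitted log2 difference between L-rhamnose and xylose, with its SE, for each model in the 4 longest runs of adjacent genes called higher (top, red) and lower (bottom, blue), in order along the scaffold; s marks models that share reads. Members of a run differ in size, from -1.19 to -6.69 in the 4-model run on scaffold 77.

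Scaffolds differed in their share of called genes. Over the 159 scaffolds with at least 20 tested genes, the share higher on L-rhamnose ranged from 3.70% to 35.3% with a median of 15.6%, and the share lower from 0.0% to 41.5% with a median of 14.6%. The highest shares of higher genes were on scaffolds 68 and 97, with 18 of 51 on each (35.3%), and the highest share of lower genes was on scaffold 77, with 22 of 53 (41.5%). Scaffold 52, which holds gene_9595, had 22 higher of 73 (30.1%). Without L-rhamnose replicates 1 and 2 the counts were 3 and 7 on scaffold 68, 5 and 8 on scaffold 97, 5 and 6 on scaffold 77, and 15 and 16 on scaffold 52. Scaffold 68 also fell to 12 without either cellobiose library and to 10 without xylose replicate 1.

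Over all 11043 pairs of adjacent tested models, both were higher on L-rhamnose in 3.95%, both lower in 3.31% and called in opposite directions in 3.70%. By orientation, both were higher on L-rhamnose in 4.58% of 5259 pairs on the same strand, 3.09% of 2819 head-to-head pairs and 3.64% of 2965 tail-to-tail pairs. Both were lower in 3.63%, 3.48% and 2.60% of these pairs. Opposite calls, counting either order of a higher and a lower model, were found in 3.82%, 3.02% and 4.11%. Pairs that shared a direction, higher or lower, were together more frequent than opposite pairs in each orientation. What share would arise by chance was not computed. The median distance between models was 501, 437 and 193 bases in the same order. Whether counting used strand is not given in the sources used here, so tail-to-tail neighbours that overlap may share reads. Without L-rhamnose replicate 1 the pairs of higher genes numbered 39, 8 and 9, against 241, 87 and 108 with all libraries, and without L-rhamnose replicate 2 they numbered 62, 15 and 21. The pairs of lower genes fell from 191, 98 and 77 to 14, 5 and 4 and to 23, 5 and 8 in these fits, and the opposite pairs from 201, 85 and 122 to 5, 2 and 6 and to 7, 3 and 13. Without xylose replicate 1 there were 135, 32 and 58 pairs of higher genes, 113, 59 and 36 of lower genes, and 95, 29 and 64 opposite pairs. With library totals alone the pairs of lower genes numbered 124, 59 and 44.

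Levels on cellobiose placed the called genes. Both libraries of the higher sugar stood above both of the lower one in all 2014 higher and 1973 of the 1974 lower genes. Selection by the test largely implies this, and the share over all tested genes was not computed. Among the higher genes, both cellobiose libraries lay between the sugars in 48.5%, below both xylose libraries in 5.91% and above both L-rhamnose libraries in 4.22%, and in the remaining 41.4% they overlapped with one of them. Among the lower genes, cellobiose lay between in 26.9%, above both xylose libraries in 13.1% and below both L-rhamnose libraries in 1.98%, and overlapped in 58.1%. The places and overlaps used CPM scaled to the library total alone, and no other scaling of CPM was tried for them. These places moved with single libraries. Over the fits without 1 library, cellobiose lay between for 58.1% to 66.7% of the higher and 40.3% to 60.6% of the lower genes. Over the same fits it lay below both xylose libraries for 4.94% to 14.0% of the higher genes, and above them for 6.44% to 26.8% of the lower genes.

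In both sets cellobiose was more often near xylose. Nearness was taken from the mean CPM, scaled to the library total alone, plus 0.5 on a log scale. Cellobiose was nearer to L-rhamnose for 33.8% of the higher genes, and nearer to xylose for 76.0% of the lower genes. The first share ranged from 27.1% to 40.2% and the second from 67.7% to 80.7% when single libraries were left out. Among the 4 named genes only gene_9595 followed that order, since cellobiose was nearer to L-rhamnose for gene_7552, gene_12153 and gene_14168. By the mean level of the run, though not in each model, cellobiose was also nearer to L-rhamnose in the runs on scaffolds 10 and 103. The same held for the 4-model run on scaffold 77.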

How the data were processed

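One table per library was deposited with, for each gene, the expected count, RSEM's estimate of the reads from a gene, and the FPKM, which the authors scaled by gene length and library total. Per the submitters' processing notes the tools were HISAT, Bowtie2 and RSEM. The deposited gene models carry the JGI name Dicsqu464_1. The versions, the assembly the reads were aligned to and the strand setting were not given in the sources used here. Listed lengths equalled the summed coding parts of all 14466 genes with a count. Genes missing from a table were taken as 0.

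Expected counts were rounded and tested with edgeR 4.0.16 in R 4.3.3 (filterByExpr, TMM, glmQLFit, glmQLFTest), all 6 libraries in one fit without covariates. The biological coefficient of variation came to 0.218 (3 residual and 4.15 prior degrees of freedom). SE is the log2 difference over the square root of F. Alternatives used DESeq2 1.42.0 and limma 3.58.1, other scalings, filters and libraries. The fit was tested on simulated data. A gene shares reads when a count was not whole by more than 1e-06. Spans of 2947 tested genes overlap a neighbour's, which makes their counts uncertain.

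Named genes are the 2 per direction with the greatest fitted change among called genes with no overlap of libraries, at least 10 CPM on the higher sugar and whole counts. Lists by enzyme family or pathway were planned, but the RefSeq table of another strain, with 12497 genes, matched 0 identifiers, so 0 lists were formed. Members, rules and lists were chosen with earlier results of these data known.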

Additional observations from a re-analysis of the deposited data

How the results depend on the processing

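Under scaling by DESeq2 size factors, filters, DESeq2's test, a fit of only the 4 libraries or without genes that share reads, with library totals alone or with the block below, the counts of called genes, of genes at least 2-fold changed and of runs stayed within 1.5 times their values. Other counts did not all stay there: with library totals alone the lower genes with cellobiose above both xylose libraries went from 259 to 156, and with only the 4 libraries the opposite head-to-head pairs went from 85 to 49 and the lower tail-to-tail pairs from 77 to 49. With a minimum fold of 1.5, 1643 genes were called, 947 higher (947 at least 2-fold) and 696 lower (693), in 18 and 13 runs. With limma on log2(FPKM + 1), on log2(FPKM + 0.1) and on log2(FPKM + 1) with a mean of at least 1 FPKM, 1195, 1163 and 1255 genes were lower, 702, 718 and 718 of them at least 2-fold, in 14, 13 and 15 runs, and higher genes made up 66.1%, 65.3% and 65.4% of the calls. FPKM carries no TMM factor. Without single libraries the calls ranged from 761 to 4124, higher from 497 to 1981, lower from 264 to 2143, at least 2-fold from 495 to 1734 and from 264 to 1459, and runs from 3 to 56 and from 1 to 42. Leaving out a replicate removes a library from a group of 2. The replicate block gave 2852 calls, 2825 of them shared, with 35 and 20 runs; deviations of same-numbered L-rhamnose and xylose libraries correlated across genes with r = -0.0868, and the labels do not say that a number marks a shared batch, so the numbers were not taken as pairs. Of the results on 4 genes and 8 runs, 201 were counted as kept under an alternative, 13 as weakened and 0 as reversed in direction. The filter of at least 1 CPM in 4 libraries removed gene_12153 and gene_14168, so neither was tested under it. The only gene among the weakened was gene_12153, which lost its call. Each weakened run no longer had a majority of its models called, and some runs counted as kept had lost the call of single models.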
